A study of Mus musculus with 6 samples.

Results

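The genes described here are interferon-stimulated genes and the receptors, kinases and transcription factors that regulate them. They are 46 mouse genes named by symbol. The rule uses no count, but the list was drawn up with earlier results of these data known. A row with the symbol was found for 44 of them among the 41721 rows of the gene count table, and *Ifit3* and *Oas1a* have no row under those names. Of the 44, 42 passed the filter on low counts and were tested, while *Oas3* and *Rsad2* did not pass it.

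The study examined pyruvate dehydrogenase kinase 4 (PDK4) in mouse aortic smooth muscle cells (MASMCs), which were isolated from the abdominal aorta and grown in culture. RNA was sequenced from 3 Pdk4fl/fl libraries and 3 Pdk4SMKO libraries, all of cells treated with Ang II, a peptide hormone that acts on the vessel wall. The question of the comparison is how loss of *Pdk4* in smooth muscle cells alters their transcripts. The values are the reads counted on each gene as deposited, with 16526044 to 22481670 per library.

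Both genotypes carry *Pdk4* alleles flanked by loxP sites. According to the methods, Pdk4SMKO mice also carry Myh11-iCre/ERT2, a tamoxifen-inducible Cre transgene driven by a smooth muscle promoter and located on the Y chromosome, and both genotypes were given tamoxifen. Since Pdk4fl/fl mice lack the transgene, Cre and the deletion cannot be told apart. The methods give cells from mice 10 weeks old, used between passages 4 and 8, and an Ang II dose of 1 μM for 48 h, while the labels name Ang II without dose or time. Every library is Ang II-treated, so no untreated level is known here. The study calls the libraries of a genotype biological replicates, and the labels do not say whether they came from separate animals or cultures. The p-values measure only the spread between these libraries, which may be technical in part.

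Type I interferons are secreted proteins that bind a receptor made of IFNAR1 and IFNAR2. The receptor-bound kinases JAK1 and TYK2 then phosphorylate STAT proteins, among them STAT2, which with IRF9 forms part of a complex that binds the interferon-stimulated response element (ISRE) in the promoters of induced genes, while other members of the interferon regulatory factor (IRF) family activate or repress through related sites. The induced proteins detect viral nucleic acids, degrade or block viral RNA, and hold virions at membranes, and vascular smooth muscle cells are among the many cell types that can respond to interferon.

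The promoters show what many of these genes share. RefSeq promoters on GRCm38.p6, running from 250 bases before to 50 bases after the gene start, were found for 36 of the 46 genes, 42 promoters in all. The ISRE core GAAANNGAA, searched on both strands, was in 20 of the 42 (47.6%), compared with 8.56% of all 32851 promoters of the same length. The STAT site TTCNNNGAA, which reads the same on both strands, was in 13 of the 42 (31%), compared with 8.3% of all. The letters of both motifs can overlap, and a match describes the sequence without showing that a factor binds there. The 150 bases before the start are printed for 7 genes on which the results turn, with the ISRE core in capitals except in *Irf1*, where capitals mark the STAT site. The IFIT gene *Ifit1* was higher in Pdk4SMKO cells and *Isg15* passed no test of a difference, and both hold 3 copies of the core. The neighbouring GTPase genes *Gbp2*, *Gbp3* and *Gbp7* hold the core at similar distances and did not change alike. *Bst2* and *Irf1* were lower.
Ifit1, chr19:34640739-34640888, plus strand: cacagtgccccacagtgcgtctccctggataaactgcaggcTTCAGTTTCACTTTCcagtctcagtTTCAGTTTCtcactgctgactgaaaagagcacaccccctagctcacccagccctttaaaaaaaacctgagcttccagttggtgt
Isg15, chr4:156200819-156200968, minus strand: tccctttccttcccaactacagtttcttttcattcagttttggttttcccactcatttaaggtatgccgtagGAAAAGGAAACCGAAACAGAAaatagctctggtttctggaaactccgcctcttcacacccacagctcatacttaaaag
Gbp2, chr3:142620513-142620662, plus strand: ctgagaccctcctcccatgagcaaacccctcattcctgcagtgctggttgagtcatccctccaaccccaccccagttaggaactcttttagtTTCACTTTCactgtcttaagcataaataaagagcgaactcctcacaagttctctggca
Gbp3, chr3:142559894-142560043, plus strand: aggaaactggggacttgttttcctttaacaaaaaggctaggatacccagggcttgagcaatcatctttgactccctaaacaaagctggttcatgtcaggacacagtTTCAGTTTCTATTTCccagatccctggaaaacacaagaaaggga
Gbp7, chr3:142530186-142530335, plus strand: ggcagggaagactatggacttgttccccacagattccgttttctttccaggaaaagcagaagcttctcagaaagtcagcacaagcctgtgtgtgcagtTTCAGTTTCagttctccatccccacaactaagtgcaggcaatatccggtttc
Bst2, chr8:71537473-71537622, minus strand: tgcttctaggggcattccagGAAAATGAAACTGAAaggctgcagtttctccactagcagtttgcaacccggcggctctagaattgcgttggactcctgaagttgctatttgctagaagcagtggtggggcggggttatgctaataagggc
Irf1, chr11:53769864-53770013, plus strand: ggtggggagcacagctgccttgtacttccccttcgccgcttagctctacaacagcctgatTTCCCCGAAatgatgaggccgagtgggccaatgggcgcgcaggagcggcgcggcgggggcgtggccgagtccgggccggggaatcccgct

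Matches began 109, 103 and 84 bases before the start in *Ifit1* and 78, 72 and 66 bases before it in *Isg15*. In the GTPase genes they began 58 bases before the start in *Gbp2*, 44 and 38 bases in *Gbp3* and 52 bases in *Gbp7*. Those in *Bst2* lay farther out, at 130 and 124 bases, and the STAT site of *Irf1* began at 90 bases. *Gbp3* and *Irf1* each have a second RefSeq promoter with no such match within 150 bases of its start. With the genes sorted by the test between genotypes, for which a call needs an adjusted p under 0.05 and a change of at least 2-fold, the core was in 5 of the 10 promoters of genes that were lower (50%), in 5 of the 11 of genes that were higher (45.5%) and in 6 of the 17 of genes that were not called (35.3%). The promoters of *Ifit3*, *Oas1a*, *Oas3* and *Rsad2*, which were not tested, hold it too. Counted by gene, the core was in 5 of the 8 lower genes with a promoter (62.5%), 5 of the 10 higher (50%) and 6 of the 14 not called (42.9%). Promoters with the core were thus found for genes that were lower and for genes that were higher. No difference between these small shares was tested.

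Counts were compared between genotypes with edgeR's quasi-likelihood test, fitted on the 14085 genes that passed the filter and adjusted over all of them by the Benjamini-Hochberg method. A gene was called lower or higher in Pdk4SMKO cells where the adjusted p was under 0.05 and the size of the log2 fold change was 1 or more. Values per library are CPM, a count relative to the total of its library, further scaled by TMM factors that balance the libraries over most genes. The factors ran from 0.784 to 0.838 in Pdk4fl/fl libraries and from 1.21 to 1.26 in Pdk4SMKO libraries, so that the scaling itself separated the genotypes. A count of 3, taken as the floor for detection, is worth 0.132 to 0.227 CPM. Floors cover counting error alone. With 3 libraries against 3, an exact two-sided permutation test cannot give a p under 0.1, and it gave that value for every tested gene here whose genotypes did not overlap.

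*Pdk4* itself was counted 570, 639 and 421 times in Pdk4fl/fl libraries and 110, 182 and 141 times in Pdk4SMKO libraries, which is lower in each and not absent. The genotypes differed in more than *Pdk4*: of all genes tested, 26.5% were called lower and 32.8% higher, 59.3% in all. *Xist*, transcribed from the inactive X chromosome of females, had 3 to 5 counts in Pdk4fl/fl libraries and 321 to 610 in Pdk4SMKO libraries, although the methods name male mice. The 8 mesothelial markers summed to 74.2 to 99.99 CPM in Pdk4fl/fl libraries and 723 to 1325 CPM in Pdk4SMKO libraries, and all 7 that were tested were higher. Of the 10 macrophage markers, *C1qa*, *C1qb*, *C1qc*, *Adgre1* and *Tyrobp* were at 0 in all Pdk4fl/fl libraries. The list without *Cd68* summed to 0.303 to 0.494 CPM there and to 9.47 to 33.8 CPM in Pdk4SMKO libraries, and of the 7 tested 6 were higher and *Cd68* was lower. The fibroblast list summed to 122 to 151 CPM and to 279 to 612 CPM, with 3 of 7 tested markers higher and 1 lower. The endothelial list summed to 16.0 to 24.9 CPM and to 3.33 to 6.72 CPM, with 2 of 3 tested markers lower, and *Tie1* was at 0 in all Pdk4fl/fl libraries. Of the lymphocyte and dendritic cell markers, *Cd3g*, *Nkg7* and *Siglech* were at 0 in all libraries. The smooth muscle markers summed to 788 to 813 CPM and to 734 to 964 CPM, with 6 of 10 higher, among them *Acta2*, and *Tagln*, *Cnn1* and *Smtn* lower. *Myh11*, a defining marker of differentiated smooth muscle, had 8 to 10 counts in each Pdk4fl/fl library. These markers move with the genotype in every comparison that follows, and their part in it was not tested. In bulk RNA, fewer cells of a type and less RNA per cell cannot be told apart.

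The interferon genes changed in both directions, and about as often as other genes. Of the 42 tested, 10 were called lower in Pdk4SMKO cells (23.8%, against 26.5% of all genes tested), 14 higher (33.3%, against 32.8%) and 18 were not called. The genes that were lower are *Jak1*, *Irf1*, *Irf2*, *Irf5*, *Mx1*, *Mx2*, *Gbp2*, *Gbp3*, *Bst2* and *Ifi44*. Those that were higher are *Ifnar1*, *Irf3*, *Ifih1*, *Dhx58*, *Oas2*, *Eif2ak2*, *Usp18*, *Trim25*, *Ifit1*, *Ifit2*, *Gbp7*, *Cmpk2*, *Dtx3l* and *Parp14*. The median log2 fold change was -0.11, beside 0.12 over all genes tested, and the median size of the change was 1.496, beside 1.30. The libraries of the genotypes did not overlap for 31 of the 42 (73.8%, against 81.8% of all genes), with Pdk4SMKO lower in 15 (35.7%, against 38.3%) and higher in 16 (38.1%, against 43.5%). With scaling by library size alone, which moved the median of all genes up by 0.61 on the log2 scale, the split was 6 lower and 19 higher. Measured from the median of all genes, the median of the 42 hardly moved between these scalings, at -0.23 with TMM and -0.22 with library size alone. It did move when a library was left out, from -0.47 without Pdk4fl/fl replicate 2 to 0.006 without Pdk4fl/fl replicate 3. *Jak1*, *Bst2*, *Gbp3* and *Ifi44* were no longer called with scaling by library size alone.

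**Figure D1:**
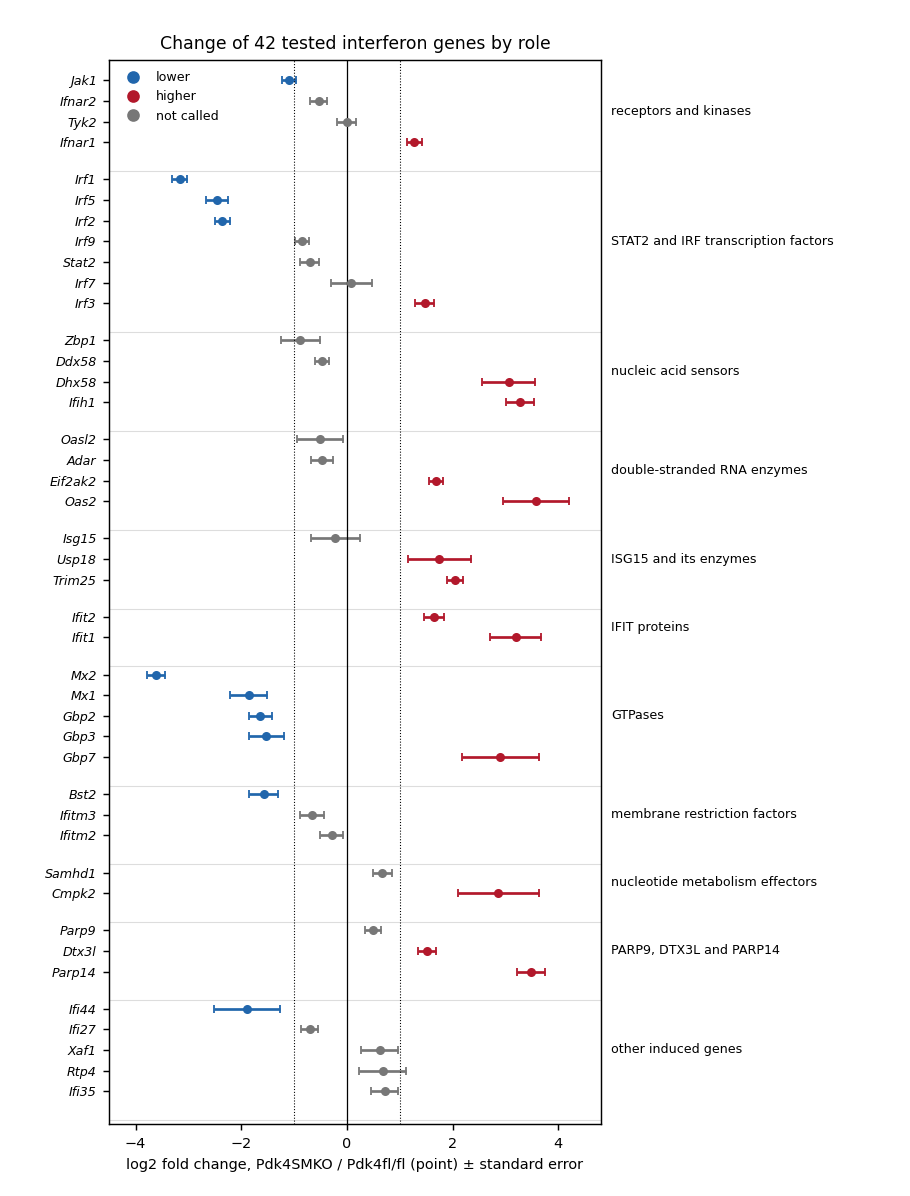
Log2 fold change of the 42 tested genes, Pdk4SMKO over Pdk4fl/fl, on the x axis, with the genes grouped by role on the y axis; points are estimates, bars are ± 1 standard error and dotted lines mark the limit of 1. Changes run from -3.61 for *Mx2* to 3.58 for *Oas2*, and most role groups, the GTPases and the IRFs among them, hold genes on both sides of 0.

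The receptor chain showed no common direction. *Ifnar1*, the low-affinity subunit of the type I interferon receptor, measured 53.1, 41.7 and 40.0 CPM in Pdk4fl/fl libraries and 102, 111 and 112 CPM in Pdk4SMKO libraries. Every Pdk4SMKO library lay above every Pdk4fl/fl library, and the log2 fold change was 1.27 (SE 0.14, n = 3 per genotype, adjusted p = 1.35e-05 by edgeR). *Ifnar2*, the high-affinity subunit, measured 54.5, 61.9 and 67.2 CPM against 34.4, 49.2 and 42.9 CPM. Its genotypes did not overlap either, but the log2 fold change of -0.54 (SE 0.16, edgeR adjusted p = 0.00897) did not reach the limit of 1, and it was 0.07 with scaling by library size alone. The genes for both subunits are neighbours on chromosome 16, with 90.3 kb between *Ifnar2* and *Ifnar1* in the coordinates of the count table.

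*Jak1* encodes the kinase bound to IFNAR2, and many other cytokine receptors use it too. It measured 368, 377 and 314 CPM in Pdk4fl/fl libraries and 149, 168 and 177 CPM in Pdk4SMKO libraries, a mean of 46.7% of the Pdk4fl/fl level. The groups were well apart, and the log2 fold change was -1.10 (SE 0.13, edgeR adjusted p = 1.96e-05), just past the limit, which it missed at -0.89 with upper-quartile factors and at -0.50 with library size alone. *Tyk2*, the kinase bound to IFNAR1, measured 32.7, 24.3 and 29.4 CPM against 33.8, 28.1 and 23.9 CPM. Its libraries overlapped throughout, with a log2 fold change of -0.01 (SE 0.17, edgeR adjusted p = 0.964) whose sign changed in several alternatives, to 0.60 with library size alone.

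*Irf1* had one of the largest decreases. It encodes the first described interferon regulatory factor, an activator whose own gene is induced by interferon gamma (MGP_C57BL6NJ_G0018696, chromosome 11, 54790564 to 54798923). It measured 233, 203 and 252 CPM in Pdk4fl/fl libraries and 21.9, 28.3 and 26.3 CPM in Pdk4SMKO libraries. The mean fell to 11.1% of the Pdk4fl/fl level, 229 ± 24.3 against 25.5 ± 3.28 CPM (mean ± SD, n = 3), and the log2 fold change was -3.17 (SE 0.15, edgeR adjusted p = 4.69e-08). *Irf2*, which competes with IRF1 for the same sites (chromosome 8, 47591795 to 47708659), measured 134, 137 and 110 CPM against 21.4, 26.0 and 26.8 CPM. It was lower in all Pdk4SMKO libraries, with a log2 fold change of -2.36 (SE 0.15, edgeR adjusted p = 2.49e-07). The activator and its competitor thus fell together, to 11.1% and 19.5% of their Pdk4fl/fl means.

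*Irf5*, which acts downstream of Toll-like receptors (chromosome 6, 28112030 to 28127275), measured 27.9, 30.6 and 28.0 CPM in Pdk4fl/fl libraries and 6.94, 4.73 and 4.02 CPM in Pdk4SMKO libraries. The groups did not overlap, and the log2 fold change was -2.46 (SE 0.21, edgeR adjusted p = 2.32e-06). It overlaps *Tnpo3* on the other strand over 1044 bases, a gene with 10859 counts over the 6 libraries, and whether the counting used strand is not given in the sources used here. *Irf3*, the factor activated by cytosolic nucleic acid sensors (chromosome 7, 47483211 to 47488468), was the only IRF among the 6 on the list that was called higher. It measured 7.67, 6.48 and 6.28 CPM against 19.4, 21.1 and 16.3 CPM, with a log2 fold change of 1.48 (SE 0.18, edgeR adjusted p = 2.88e-05) and no overlap.

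*Stat2* and *Irf9*, whose products act together in the interferon-activated complex, were not called. *Stat2* measured 43.6, 35.3 and 31.6 CPM in Pdk4fl/fl libraries and 27.8, 19.4 and 20.5 CPM in Pdk4SMKO libraries. *Irf9*, which gives the complex its DNA contact, measured 51.5, 51.0 and 51.2 CPM against 31.9, 24.2 and 29.1 CPM. In both, every Pdk4SMKO library was below every Pdk4fl/fl library, and the log2 fold changes of -0.71 (SE 0.18) for *Stat2* and -0.85 (SE 0.14) for *Irf9* missed the limit of 1 with adjusted p values of 0.00478 and 0.000211 in edgeR's test. *Irf9* shares 123 bases with *Rnf31* on the same strand. *Irf7*, the factor that amplifies the interferon response and is itself strongly induced by it, measured 4.07, 2.42 and 5.60 CPM against 6.41, 3.48 and 2.75 CPM. The libraries overlapped, with the highest value in Pdk4SMKO replicate 1, and the log2 fold change was 0.08 (SE 0.39, edgeR adjusted p = 0.853), with the sign reversed without that library (-0.34) or without Pdk4fl/fl replicate 2 (-0.17).

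**Figure D2:**
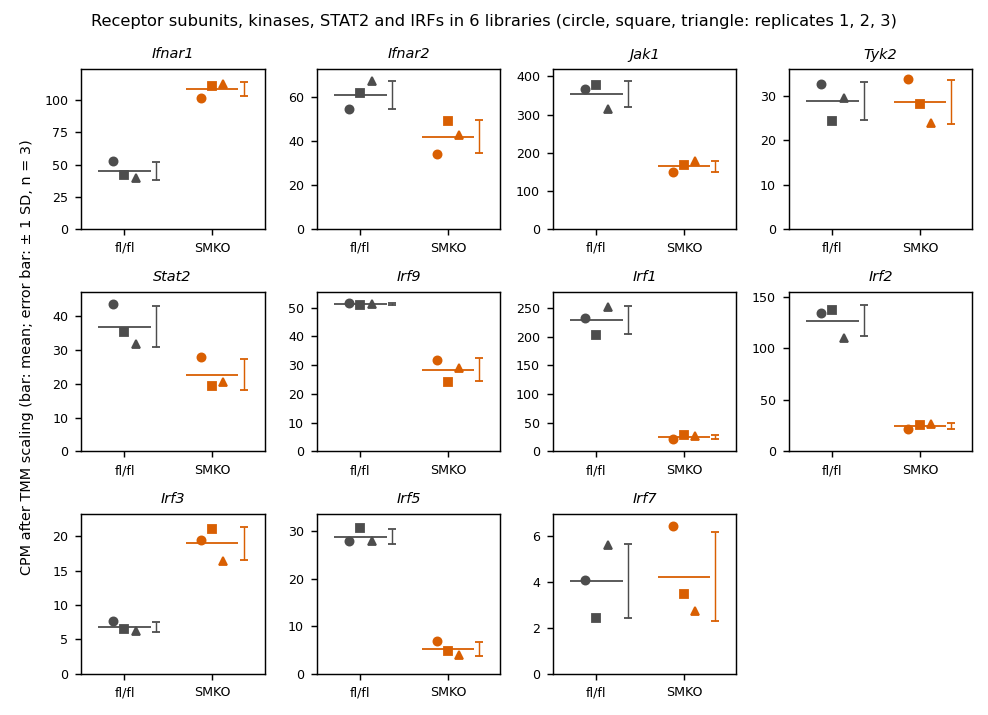
CPM after TMM scaling (y axis, from 0, a scale of its own per panel) of the 11 receptor, kinase, STAT2 and IRF genes in the 3 Pdk4fl/fl and 3 Pdk4SMKO libraries; symbols are replicates, horizontal bars are means and error bars are ± 1 SD. *Irf1*, *Irf2* and *Irf5* sit far lower and *Ifnar1* and *Irf3* higher in all Pdk4SMKO libraries, while the symbols of *Tyk2* and *Irf7* overlap.

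Of the sensors of nucleic acids, 2 of 4 were higher and none of the 4 was called lower. Over all genes tested, 32.8% were called higher and 26.5% lower. *Ifih1* encodes MDA5, which detects long double-stranded RNA (MGP_C57BL6NJ_G0026190, chromosome 2, 64110273 to 64164912). It measured 1.20, 1.54 and 2.27 CPM in Pdk4fl/fl libraries and 18.7, 13.1 and 16.3 CPM in Pdk4SMKO libraries. Each Pdk4SMKO library was far above each Pdk4fl/fl library, with a mean 9.60-fold higher and a log2 fold change of 3.27 (SE 0.27, edgeR adjusted p = 1.70e-06). *Dhx58*, chosen after its values were seen, encodes the related LGP2 and measured 0.400, 0.220 and 0.227 CPM against 3.51, 1.49 and 2.16 CPM (log2 fold change 3.06, SE 0.50, edgeR adjusted p = 0.000238), with no overlap and Pdk4fl/fl values near the floor. *Ddx58*, which encodes RIG-I, the sensor of RNA with a 5′ triphosphate, measured 75.0, 75.7 and 77.1 CPM against 60.6, 45.6 and 58.3 CPM. Its genotypes did not overlap, but the log2 fold change of -0.47 (SE 0.13, edgeR adjusted p = 0.00856) missed the limit and was 0.14 with library size alone. *Zbp1*, a sensor of left-handed nucleic acids, had a log2 fold change of -0.88 (SE 0.38, edgeR adjusted p = 0.0531) with overlapping libraries. The sensor genes thus differed among themselves, with MDA5 transcripts rising from a low level and RIG-I transcripts within a factor of 1.38 of the Pdk4fl/fl mean.

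Among the enzymes that act on or are activated by double-stranded RNA, *Eif2ak2* and *Oas2* were higher, *Adar* and *Oasl2* were not called and *Oas3* was not tested. *Eif2ak2* encodes PKR, a kinase that stops translation when it binds double-stranded RNA. It measured 17.9, 16.3 and 20.4 CPM in Pdk4fl/fl libraries and 59.0, 54.9 and 61.8 CPM in Pdk4SMKO libraries, with little spread within either genotype and a log2 fold change of 1.69 (SE 0.14, edgeR adjusted p = 1.52e-06). *Adar*, which edits adenosine to inosine in double-stranded RNA, measured 57.3, 49.9 and 31.6 CPM against 37.2, 34.3 and 28.2 CPM. Pdk4fl/fl replicate 3 lay among the Pdk4SMKO libraries, and the log2 fold change was -0.48 (SE 0.21, edgeR adjusted p = 0.0581), or 0.12 with library size alone. *Adar* overlaps *Chrnb2* on the other strand over 5231 bases.

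The oligoadenylate synthetases make the messenger that activates RNase L. *Oas2*, chosen after its values were seen, measured 0.600, 0.0549 and 0.151 CPM in Pdk4fl/fl libraries and 4.61, 2.44 and 2.55 CPM in Pdk4SMKO libraries. All Pdk4SMKO values were higher (log2 fold change 3.58, SE 0.62, edgeR adjusted p = 0.000377, or 4.96 without Pdk4fl/fl replicate 1), and those of Pdk4fl/fl replicates 2 and 3 were under the floor. *Oas3* was counted 0 times in each Pdk4fl/fl library and 14, 6 and 0 times in Pdk4SMKO libraries, so that the genotypes overlapped at 0. Its Pdk4SMKO mean was 1.54 times the mean floor of 3 counts per Pdk4fl/fl library. The exact permutation test between genotypes gave p = 0.4. *Oasl2*, an OAS-like protein, had a log2 fold change of -0.50 (SE 0.43, edgeR adjusted p = 0.304) in TMM-scaled values and 0.12 with library size alone. Rows without a symbol whose descriptions name *Oas1a* were counted 1, 2 and 2 times in Pdk4fl/fl and 26, 7 and 6 times in Pdk4SMKO libraries for the first, and 0, 0 and 1 times against 10, 10 and 0 times for the second. They were not counted among the 44. OAS genes are close relatives, and reads shared between them could be split or dropped in counting.

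ISG15 is a ubiquitin-like protein that is conjugated to other proteins, and its transcript is a standard readout of interferon signalling. *Isg15*, chosen after its values were seen, measured 4.67, 3.90 and 10.7 CPM in Pdk4fl/fl libraries and 8.56, 2.79 and 4.95 CPM in Pdk4SMKO libraries. The libraries overlapped, with a single high library in each genotype, and the log2 fold change was -0.22 (SE 0.46, edgeR adjusted p = 0.669), or 0.41 with library size alone. *Trim25*, a ubiquitin ligase that acts on RIG-I and is itself a target of ISG15, was plainly higher. It measured 9.47, 10.7 and 9.38 CPM against 45.7, 34.8 and 41.7 CPM, a mean 4.14-fold higher with a log2 fold change of 2.05 (SE 0.16, edgeR adjusted p = 1.06e-06). *Usp18*, chosen after its values were seen, encodes the protease that removes ISG15 and that also restrains the receptor. It measured 1.00, 0.494 and 0.757 CPM against 4.79, 1.05 and 1.62 CPM (log2 fold change 1.74, SE 0.60, edgeR adjusted p = 0.0208). The genotypes did not overlap, but 1 library carried much of the difference, and without Pdk4SMKO replicate 1 the log2 fold change was 0.85 (edgeR adjusted p = 0.118). The call was also lost without Pdk4fl/fl replicate 2, at 1.51 (edgeR adjusted p = 0.0775).

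Both IFIT genes with a row were higher, as were 32.8% of all genes tested. *Ifit1* encodes a protein that binds viral RNA lacking the host cap methylation (MGP_C57BL6NJ_G0025479, chromosome 19, 34399342 to 34411059). It measured 1.13, 0.384 and 1.44 CPM in Pdk4fl/fl libraries and 12.9, 4.98 and 8.39 CPM in Pdk4SMKO libraries. The Pdk4SMKO libraries were all higher and spread widely, with a log2 fold change of 3.19 (SE 0.48, edgeR adjusted p = 0.000141). *Ifit2*, chosen after its values were seen, measured 19.1, 11.6 and 13.4 CPM against 46.7, 44.3 and 46.6 CPM (log2 fold change 1.64, SE 0.18, edgeR adjusted p = 1.64e-05), with close agreement among Pdk4SMKO libraries. The genes lie 117 kb apart on chromosome 19. A row without a symbol between them, described as *Ifit3*, was counted 12, 13 and 11 times against 24, 13 and 12 times, and a pair of further rows described so were at 0 in all libraries, so that no level of *Ifit3* can be given.

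The interferon-induced GTPases were all called, 4 lower and 1 higher, where 59.3% of all genes tested were called, 26.5% lower and 32.8% higher. MX proteins trap viral nucleoproteins. *Mx2* (MGP_C57BL6NJ_G0010152, chromosome 16, 102065499 to 102096467, annotated as a polymorphic pseudogene) had the largest decrease of the 42 genes, at 34.5, 30.8 and 34.8 CPM in Pdk4fl/fl libraries and 3.12, 2.44 and 2.60 CPM in Pdk4SMKO libraries. Its values were tight within each genotype and fell to 8.14% of the Pdk4fl/fl mean, with a log2 fold change of -3.61 (SE 0.17, edgeR adjusted p = 5.43e-08). *Mx1*, 72.4 kb away, was also lower from a low level, with a log2 fold change of -1.86 (SE 0.35, edgeR adjusted p = 0.00071).

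Guanylate-binding proteins (GBPs) coat and disrupt intracellular pathogens and their vacuoles. *Gbp7*, *Gbp3* and *Gbp2* lie in that order within chromosome 3, 150789894 to 150908051, with gaps of 15.0 and 49.6 kb, and all 3 were chosen after their values were seen. *Gbp2* measured 25.7, 19.7 and 34.4 CPM in Pdk4fl/fl libraries and 8.17, 9.16 and 8.24 CPM in Pdk4SMKO libraries (log2 fold change -1.64, SE 0.21, edgeR adjusted p = 4.57e-05). *Gbp3* measured 8.93, 4.94 and 11.0 CPM against 3.47, 2.04 and 3.04 CPM (log2 fold change -1.53, SE 0.33, edgeR adjusted p = 0.00173). Both were lower without overlap, although *Gbp3* was at -0.91 with library size alone and then not called. *Gbp7* went the other way, at 0, 0.165 and 0.681 CPM against 2.90, 1.59 and 1.57 CPM (log2 fold change 2.90, SE 0.73, edgeR adjusted p = 0.00408), and at a log2 fold change of 4.39 without Pdk4fl/fl replicate 3. *Gbp7* was counted 0, 3 and 9 times in Pdk4fl/fl libraries and passed the filter only through its 66, 32 and 32 counts in Pdk4SMKO libraries. At that Pdk4fl/fl level it could be called only as higher. Its direction beside *Gbp2* and *Gbp3*, whose promoters hold the same 9-letter core, therefore carries no further weight. GBP genes are close relatives, so reads that fit more than 1 of them make the values less certain.

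Per kb of gene model, the membrane restriction factors *Ifitm3*, *Ifitm2* and *Bst2* had the 3 highest mean levels on the list in both genotypes. *Bst2* encodes tetherin, which holds budding virions at the cell surface. It measured 94.1, 94.4 and 157 CPM in Pdk4fl/fl libraries and 55.0, 28.8 and 32.2 CPM in Pdk4SMKO libraries. No Pdk4SMKO library reached the Pdk4fl/fl range, and the log2 fold change was -1.57 (SE 0.27, edgeR adjusted p = 0.000386), or -0.95 and not called with library size alone. *Ifitm3*, which blocks fusion of virions with endosomes, measured 207, 198 and 364 CPM against 130, 170 and 186 CPM. The groups did not overlap, with Pdk4fl/fl replicate 3 far above the rest, but the log2 fold change of -0.66 (SE 0.23, edgeR adjusted p = 0.0239) missed the limit. *Ifitm2*, its neighbour and close relative on chromosome 7, had overlapping libraries and a log2 fold change of -0.29 (SE 0.22, edgeR adjusted p = 0.254), or 0.32 with library size alone, and reads shared by the IFITM genes make both values uncertain.

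Among the effectors that act on nucleotides, *Samhd1*, which degrades deoxynucleotides, measured 78.7, 72.8 and 94.2 CPM in Pdk4fl/fl libraries and 98.7, 151 and 141 CPM in Pdk4SMKO libraries. The ranges did not overlap, but the log2 fold change of 0.67 (SE 0.17, edgeR adjusted p = 0.00484) stayed under the limit of 1. *Cmpk2*, a mitochondrial nucleotide kinase, was called higher from near the floor, with a log2 fold change of 2.87 (SE 0.77, edgeR adjusted p = 0.00612). That change was 2.00 without Pdk4SMKO replicate 1 and 3.76 without Pdk4fl/fl replicate 3, and still called. *Rsad2*, which encodes viperin and makes a chain-terminating nucleotide, was counted 3, 2 and 2 times against 17, 0 and 5 times, which is too few to test. The viperin counts overlapped between genotypes and came mostly from Pdk4SMKO replicate 1.

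PARP9, DTX3L and PARP14 are an ADP-ribosylation module whose genes lie within chromosome 16, 34911026 to 35074295. *Parp14*, a mono-ADP-ribosyltransferase, measured 1.47, 0.933 and 1.66 CPM in Pdk4fl/fl libraries and 17.4, 13.2 and 14.1 CPM in Pdk4SMKO libraries. All Pdk4SMKO libraries were far higher, with a mean 11.01-fold above that of Pdk4fl/fl and a log2 fold change of 3.48 (SE 0.26, edgeR adjusted p = 9.53e-07). *Dtx3l*, a ubiquitin ligase that pairs with PARP9, was also higher (log2 fold change 1.52, SE 0.17, edgeR adjusted p = 1.34e-05). *Parp9*, which shares 140 bases with *Dtx3l* on the other strand, measured 18.9, 24.7 and 23.7 CPM against 31.9, 29.6 and 33.6 CPM. Its values did not overlap, but the log2 fold change of 0.50 (SE 0.15, edgeR adjusted p = 0.0101) missed the limit. The module thus had its members higher by unequal amounts, from 1.41-fold for *Parp9*, which was not called, to 11.01-fold for *Parp14*.

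The last 5 genes are induced by interferon and have less defined roles. *Ifi27*, the most abundant of them and a small mitochondrial protein, measured 93.0, 113 and 143 CPM in Pdk4fl/fl libraries and 76.5, 64.3 and 73.1 CPM in Pdk4SMKO libraries. The ranges were apart, but the log2 fold change of -0.71 (SE 0.16, edgeR adjusted p = 0.0024) missed the limit. *Ifi44* was called lower at 0.249 to 3.10 CPM with overlapping libraries (log2 fold change -1.88, SE 0.62, edgeR adjusted p = 0.0178). That call was lost when any of 4 of the 6 libraries was left out: at -1.76 without Pdk4fl/fl replicate 1, -1.60 without Pdk4fl/fl replicate 3, -1.52 without Pdk4SMKO replicate 2 and -1.56 without Pdk4SMKO replicate 3. Without Pdk4SMKO replicate 1 it was called at -2.997. *Ifi35*, *Xaf1* and *Rtp4* were not called, at log2 fold changes of 0.71, 0.62 and 0.67, and their libraries overlapped.

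**Figure D3:**
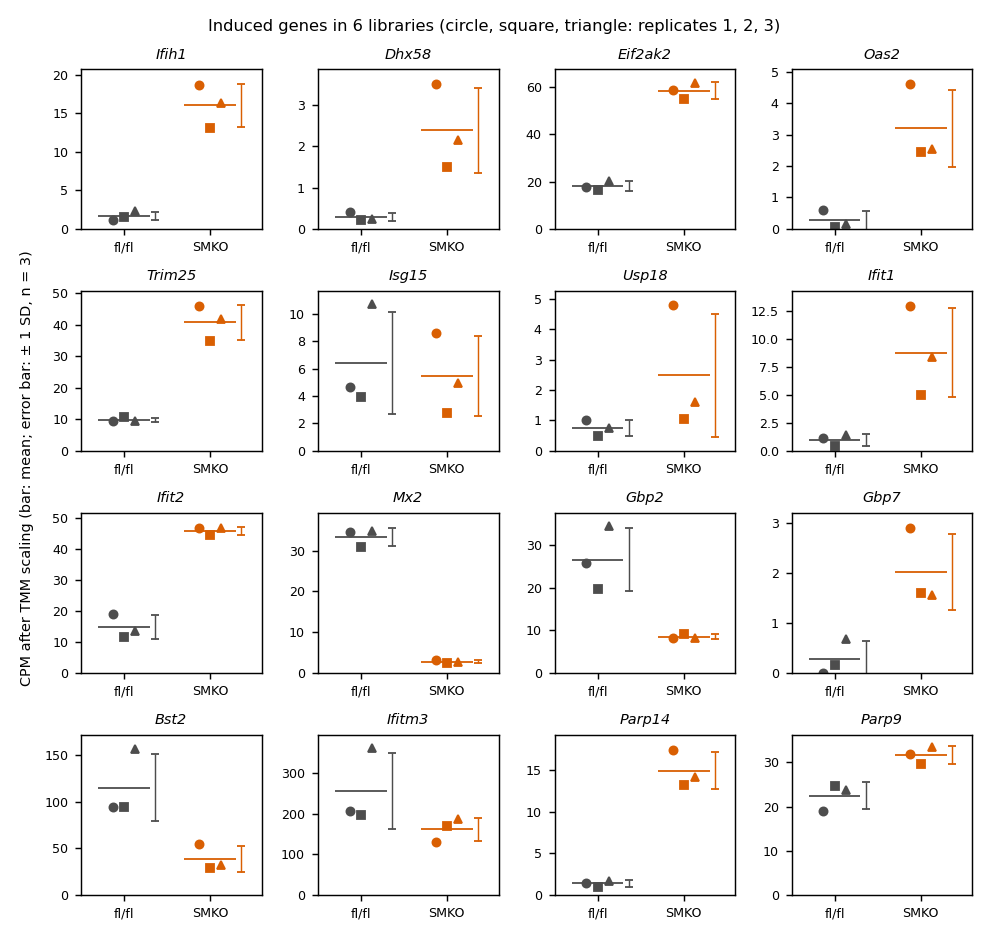
CPM after TMM scaling (y axis, from 0, a scale of its own per panel) of 16 induced genes in the 3 Pdk4fl/fl and 3 Pdk4SMKO libraries; symbols are replicates, horizontal bars are means and error bars are ± 1 SD, cut off at 0. *Ifih1*, *Eif2ak2*, *Trim25* and *Parp14* are higher and *Mx2* and *Gbp2* lower in every Pdk4SMKO library, while the symbols of *Isg15* overlap and those of *Usp18* and *Ifit1* spread widely within Pdk4SMKO.

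Levels were set beside each other as CPM per kb of gene model, since longer transcripts collect more reads. The levels of the 44 genes spanned several orders of magnitude, with a median of 3.65 CPM per kb in Pdk4fl/fl and 4.89 CPM per kb in Pdk4SMKO cells. In each genotype 10 genes were at 10 CPM per kb or more and 13 under 1. The order in Pdk4fl/fl cells began with *Ifitm3* at 378 ± 138, *Ifitm2* at 214 ± 64.5, *Bst2* at 151 ± 47.3 and *Ifi27* at 79.3 ± 17.1 CPM per kb (mean ± SD, n = 3), followed by *Irf1* at 57.7 ± 6.13, *Irf2* at 50.2 ± 5.84 and *Jak1* at 48.8 ± 4.67. The SDs of *Ifitm3* and *Ifitm2* overlapped, as did those of *Ifitm2* and *Bst2*, of *Ifi27* and *Irf1*, and of *Irf1*, *Irf2* and *Jak1*. In Pdk4SMKO cells *Ifitm3* at 239 ± 42.5, *Ifitm2* at 175 ± 39.6, *Bst2* at 50.6 ± 18.7 and *Ifi27* at 48.6 ± 4.29 CPM per kb again led. There the SDs of *Ifitm3* and *Ifitm2* overlapped, as did those of *Bst2* and *Ifi27*. *Irf1* dropped from rank 5 to rank 18 and *Ifih1* moved from rank 37 to rank 26. By call, the median Pdk4fl/fl level was 11.7 CPM per kb for the 10 genes that were lower, 7.95 for the 18 not called and 0.320 for the 14 that were higher. In Pdk4SMKO cells these medians were 3.04, 6.56 and 2.63 CPM per kb. Sorting by call uses the same counts as these levels, so this is a description without a test.

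**Figure D4:**
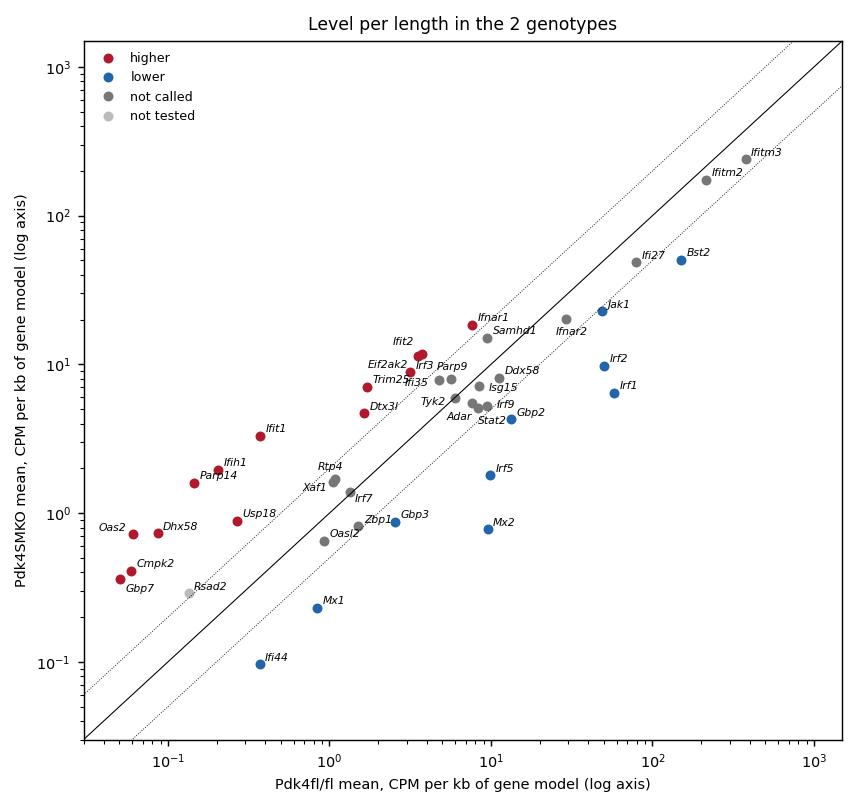
Mean level in Pdk4SMKO against mean level in Pdk4fl/fl cells, both in CPM per kb of gene model on log axes, for the 43 genes above 0 in both; *Oas3*, at 0 in Pdk4fl/fl, is left out, the solid line marks equal levels and dotted lines a 2-fold difference. Genes called higher lie at or below 7.64 CPM per kb in Pdk4fl/fl, and those called lower reach up to 151.

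Libraries of a genotype did not carry these genes evenly. Pdk4SMKO replicate 1 had the highest value of its genotype for 26 of the 42 tested genes (61.9%, against 37.5% of all genes tested). Pdk4fl/fl replicate 3 likewise led its genotype for 26 of the 42 (61.9%, against 41.1%). The ratio of Pdk4SMKO replicate 1 to the mean of the other Pdk4SMKO libraries had a median of 1.22 for the 42 genes and 0.990 for all genes with a value, and it was 1.5 or more for 14 of the 42 (33.3%, against 10.1% of 13970 genes). These 14 genes were *Ifi44* at 4.53, *Usp18* at 3.59, *Cmpk2* at 3.49, *Oasl2* at 3.00, *Zbp1* at 2.26, *Isg15* at 2.21, *Irf7* at 2.06, *Xaf1* at 2.02, *Ifit1* at 1.93, *Dhx58* at 1.92, *Oas2* at 1.85, *Gbp7* at 1.83, *Bst2* at 1.81 and *Irf5* at 1.59. They hold genes called in either direction and genes not called. *Irf1*, *Irf2*, *Ifnar1*, *Eif2ak2*, *Trim25*, *Mx2* and *Parp14* are not among them.

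The macrophage and mesothelial lists were also highest in Pdk4SMKO replicate 1, as was every other marker list except the fibroblast list. The macrophage list without *Cd68* summed to 33.8 CPM in Pdk4SMKO replicate 1 and to 13.3 and 9.47 CPM in replicates 2 and 3, and the mesothelial list to 1325, 723 and 829 CPM. The smooth muscle list summed to 964, 851 and 734 CPM and the endothelial list to 6.72, 3.33 and 4.46 CPM. The lymphocyte and dendritic cell list summed to 0.176, 0.149 and 0.0491 CPM. Every gene of that list was under the floor of 3 counts in each Pdk4SMKO library, so its order there carries no weight. The fibroblast list was lowest in replicate 1, at 279, 612 and 552 CPM. Their part in the spread of the interferon genes was not tested. Without Pdk4SMKO replicate 1, 23 of the 24 calls held, *Usp18* was the one lost, and *Oasl2* and *Zbp1* were then called lower, at log2 fold changes of -1.23 and -1.38. Without Pdk4fl/fl replicate 3, *Ifi44* lost its call, and *Ifi35* and *Rtp4* were called higher, at 1.04 and 1.16.

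**Figure D5:**
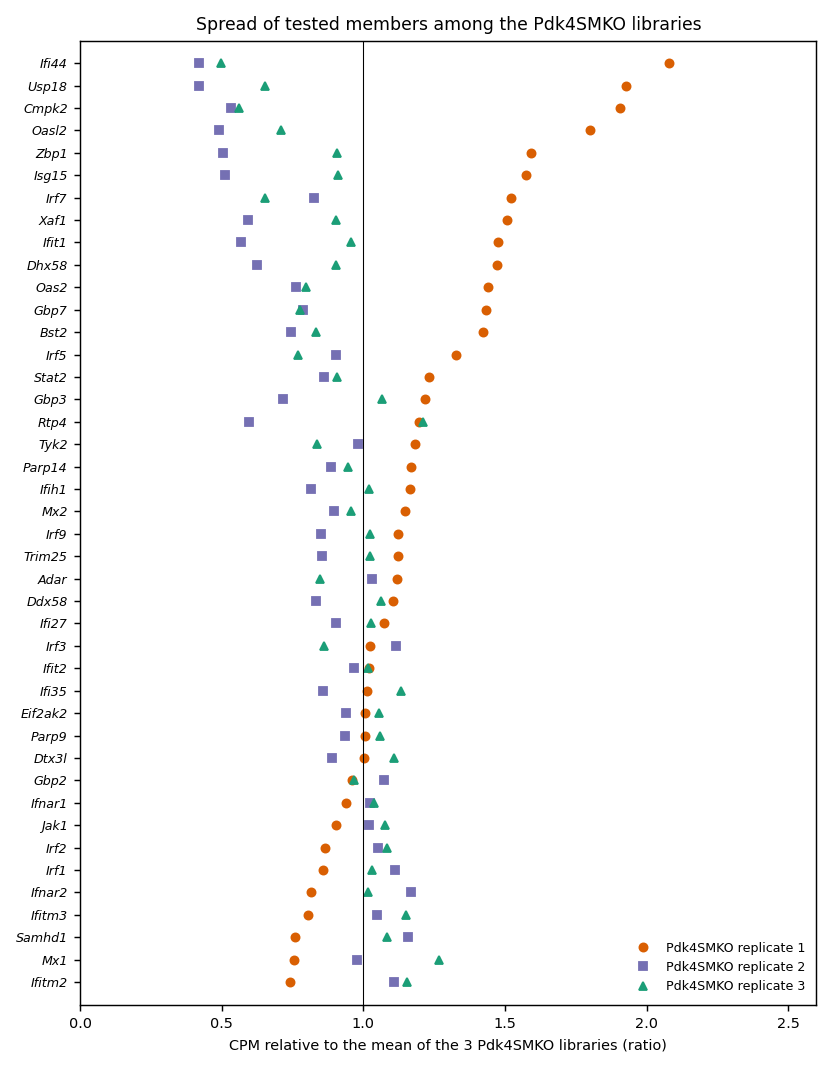
CPM of each of the 42 tested genes in the 3 Pdk4SMKO libraries, relative to their mean (x axis, ratio), ordered by the ratio of replicate 1 to the others. Replicate 1 lies to the right for *Ifi44*, *Usp18*, *Cmpk2*, *Oasl2*, *Isg15* and *Irf7*, and close to or left of 1 for *Ifnar1*, *Jak1*, *Irf1* and *Irf2*.

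The rest of the pathway was read from a list of 100 further genes, of which 78 had a row and 56 were tested. Of these, 7 were called lower (12.5%, against 26.5% of all genes tested) and 25 higher (44.6%, against 32.8%), with a median log2 fold change of 0.74, beside 0.12 over all genes. No interferon ligand gene was tested: 8 of the 11 listed had a row, and 6 of these were at 0 in all libraries. Of the other receptors, kinases and STATs, 3 of 7 were higher (42.9%, against 32.8% of all genes tested). None of the 7 was called lower, against 26.5% of all genes. *Ifnlr1*, the receptor for interferon lambda, measured 2.47, 1.70 and 1.44 CPM in Pdk4fl/fl libraries and 6.89, 9.26 and 8.54 CPM in Pdk4SMKO libraries (log2 fold change 2.13, SE 0.27, edgeR adjusted p = 4.53e-05). In the induction pathway upstream of the interferon genes, 4 of 8 were higher (50%, against 32.8% of all genes) and 1 lower (12.5%, against 26.5%). *Tlr3*, the endosomal sensor of double-stranded RNA, was higher (log2 fold change 2.84, SE 0.28, edgeR adjusted p = 6.52e-06), as *Ifih1* was, and *Tank*, an adaptor of the kinase TBK1, was lower (log2 fold change -1.83, SE 0.14, edgeR adjusted p = 8.34e-07).

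Negative regulators also went both ways, with 3 of 7 higher (42.9%, against 32.8% of all genes tested) and 2 lower (28.6%, against 26.5%). *Socs3*, a feedback inhibitor of cytokine receptors, measured 28.0, 35.3 and 19.9 CPM in Pdk4fl/fl libraries and 73.8, 147 and 90.1 CPM in Pdk4SMKO libraries (log2 fold change 1.90, SE 0.27, edgeR adjusted p = 0.000104). *Ptpn2*, a phosphatase that acts on JAK1, measured 129, 141 and 166 CPM against 31.4, 28.7 and 32.9 CPM (log2 fold change -2.23, SE 0.14, edgeR adjusted p = 2.42e-07). Neither overlapped between genotypes. Of the other IRF genes and their partners, *Irf2bp1*, a corepressor of IRF2, was higher (log2 fold change 1.10, SE 0.26, edgeR adjusted p = 0.00265). Of the 32 further induced genes tested, 14 were higher (43.8%, against 32.8% of all genes) and 4 lower (12.5%, against 26.5%). *Slfn5* was at 0 in all Pdk4fl/fl libraries and at 3.64, 7.86 and 5.20 CPM in Pdk4SMKO libraries, and *Tor1aip2*, the most abundant of those that were lower, had a log2 fold change of -2.13 (SE 0.13, edgeR adjusted p = 2.10e-07).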

How the data were processed

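RNA from 6 libraries of Ang II-treated MASMCs, 3 Pdk4fl/fl and 3 Pdk4SMKO, was sequenced. The authors deposited raw counts: reads assigned to each gene, not normalized, for all 6 libraries. The labels name a SMARTER kit and the paper NEBNext Ultra; the aligner, counting program and use of strand are not given in the sources used here. The submitters' processing notes name GRCm39, whereas the identifiers and coordinates are those of Ensembl's C57BL/6NJ annotation, except for 625 rows. Library totals of 16526044 to 22481670 limit the precision of genes near the floor of 3 counts.

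Tests used edgeR 4.0.16 and limma 3.58.1 in R 4.3.3. Genes were filtered with filterByExpr, scaled by TMM, tested with the quasi-likelihood test on genotype alone and adjusted over 14085 genes by the Benjamini-Hochberg method. The steps were tested on simulated counts in which few genes changed. Most genes tested were called in these data, so the simulation cannot tell how far the calls depend on scaling. The labelled genotype defined the groups. Alternatives were scaling by RLE or upper-quartile factors or by library size alone, DESeq2 1.42.0, no filter, a minimum of 10 counts per library, other thresholds, the replicate number as a block, and each library left out in turn.

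The genes, the further pathway list and the marker lists were chosen with earlier results of these data known. Values in every library are given for the receptors, kinases, STAT2 and IRFs. In each other role they are given for the called gene with the largest change in each direction at a mean of at least 5 CPM, for the most abundant gene where it was not called, and for genes that did not pass the filter. The same rule of size named the other pathway genes, and some listed genes are not reported here; markers and *Xist* were named from their lists. Promoters are RefSeq's on GRCm38.p6, matched by symbol, and no coordinate was converted between assemblies.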

Additional observations from a re-analysis of the deposited data

How the results depend on the processing

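All 24 called genes kept their direction in the 13 refits that could fit them, and 19 kept the call wherever fitted. Those lost in at least 1 refit were *Jak1*, *Bst2*, *Gbp3*, *Ifi44* and *Usp18*. RLE factors and DESeq2 changed no call. Library size alone moved the median of all genes by 0.61 on the log2 scale, upper-quartile factors by 0.21 and no filter by 0.21, and the causes of the other changes were not tested. With library size alone, 6 genes were lower, the median of the 42 was 0.50, and the sign turned for *Tyk2* (0.60), *Isg15* (0.41), *Ifitm2* (0.32), *Ddx58* (0.14), *Adar* (0.12), *Oasl2* (0.12) and *Ifnar2* (0.068). Relative to the median of all genes, that of the 42 was -0.23 with TMM and -0.22 with library size alone, but -0.41 with a minimum of 10 counts per library. The median also turned with upper-quartile factors (0.10) and with no filter (0.085). *Tyk2* turned to 0.20 with upper-quartile factors, 0.039 with no filter and 0.090 with a minimum of 10 counts per library, which left 35 genes and 8 higher. On the adjusted p alone, which drops the fold limit for all genes alike, 16 were lower.

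Leaving out each library in turn gave 9 to 12 lower and 13 to 16 higher genes, a median of -0.29 to 0.17, 8448 to 8589 of all genes called and 30 to 34 further pathway genes called. *Tyk2* ran from -0.14 to 0.11, *Irf7* from -0.34 to 0.38 and *Isg15* from -0.70 to 0.34. The median turned without Pdk4fl/fl replicate 3 (0.17) and Pdk4SMKO replicate 2 (0.06). *Tyk2* turned without Pdk4fl/fl replicate 1 (0.09), Pdk4SMKO replicate 2 (0.01) or 3 (0.11), *Irf7* without Pdk4fl/fl replicate 2 (-0.17) or Pdk4SMKO replicate 1 (-0.34), and *Isg15* without Pdk4fl/fl replicate 3 (0.34) or Pdk4SMKO replicate 2 (0.10).

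The libraries share replicate numbers. Same-numbered libraries correlated at 0.05, 0.09 and 0.23 in their deviations over 14085 genes, and Pdk4fl/fl replicate 1 correlated better with Pdk4SMKO replicate 2 (0.07), so the numbers were not taken to pair them. With the replicate block, 10 genes were lower and 14 higher, as without it, and 8281 of all genes were called compared with 8349. Depth limits *Oas3*, *Rsad2*, *Oas2*, *Gbp7*, *Cmpk2* and *Dhx58*, which lay near the floor in Pdk4fl/fl libraries.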

Other observations

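Among the further induced genes are 6 immunity-related GTPases, which act on the vacuoles of intracellular pathogens. Of the 4 tested, *Irgm1*, *Irgm2* and *Ifi47* were called higher in Pdk4SMKO cells and *Igtp* was not called. Over all genes tested, 32.8% were called higher. They were chosen after their values were seen. *Irgm1* measured 27.5, 28.3 and 27.4 CPM in Pdk4fl/fl libraries and 254, 179 and 203 CPM in Pdk4SMKO libraries (log2 fold change 2.93, SE 0.15, adjusted p = 8.43e-08 by edgeR's quasi-likelihood test). *Irgm2* measured 1.00, 0.879 and 0.681 CPM against 11.9, 12.1 and 13.1 CPM, and *Ifi47* 0.933, 0.824 and 0.303 CPM against 16.5, 30.5 and 21.9 CPM. None of these 3 overlapped between genotypes, and 43.5% of all genes tested were likewise higher in Pdk4SMKO without overlap. *Igtp* measured 2.07, 1.59 and 4.54 CPM against 3.29, 2.14 and 2.26 CPM, with overlapping libraries and a log2 fold change of -0.07 (SE 0.42, adjusted p = 0.882 by the same test).

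*Lgals3bp*, a secreted glycoprotein, measured 3.73, 3.29 and 3.78 CPM against 112, 78.0 and 76.7 CPM (log2 fold change 4.63, SE 0.20, adjusted p = 3.39e-08 by the same test). The nuclear proteins *Daxx* and *Ogfr* went the other way, at log2 fold changes of -1.31 (SE 0.15) and -1.28 (SE 0.12). Whether the mesothelial and macrophage markers that were higher in the same libraries have a part in these values was not tested.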
